A study of Mus musculus with 96 samples.

Results

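CC015 is a Collaborative Cross strain, an inbred mouse line whose genome is a fixed mixture of the genomes of several founder strains. It was compared with the other Collaborative Cross strains in total RNA from mineralizing calvarial osteoblast cultures. All 4 libraries whose strain label reads CC015 were taken, out of 95 independent libraries of 42 strains. They were set against the unweighted mean of the 38 other strains that had 2 or more libraries, 88 libraries in all, and 3 strains with 1 library were left out. The labels give 1 protocol for all libraries. The calvaria came from pups aged 3 to 5 days, the released cells were grown for 48 h, and RNA was taken after 10 days with ascorbic acid and beta-glycerol phosphate added, which lets cultured bone cells lay down and mineralize matrix. The labels name no treatment, mutation, sex, litter or batch, and give no pooling of animals. The 4 CC015 libraries are called replicates 1 to 4 in the order of their accessions. Each sample title ends in a number that no label explains, and those of replicates 2 and 3 lie 2 apart. Nothing in the labels ties the libraries of a strain to different pups or cultures, so a p-value here reflects the spread among the samples as sequenced, part of which may be technical.

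Cells released from neonatal calvaria hold osteoblasts and their precursors together with fibroblast-like and contractile cells of the sutures and periosteum, and macrophages. Osteoblasts mature under the transcription factors Runx2 and Sp7 and secrete collagen type I, alkaline phosphatase and the mineral-binding proteins bone sialoprotein and osteocalcin. Contractile genes such as smooth muscle actin are read from DNA by serum response factor (SRF) and its myocardin-related partners, which respond to the state of actin filaments. Genes of cholesterol synthesis are read together by SREBP proteins when membrane sterol is low.

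Levels are given as TPM (a relative abundance corrected for transcript length) summed per gene and scaled between libraries, written as scaled TPM. Differences are CC015 minus the mean of the other strains on the log2(scaled TPM + 0.5) scale, which understates changes of low genes, and each standard error (SE) and adjusted p-value comes from limma with Benjamini-Hochberg adjustment over 15638 genes. The bone identity of the CC015 cultures was checked first. Bone sialoprotein (Ibsp) was at 800, 1473, 2697 and 809 scaled TPM in replicates 1 to 4, against 51.0 to 5478 (median 1652) in the other libraries. Alkaline phosphatase (Alpl) was at 109, 184, 225 and 86.7 scaled TPM in CC015, against 19.8 to 396 (median 174) elsewhere. Both markers were thus present in each CC015 library at levels inside the range of the other strains, which is wide. Replicate 4 stood low over the whole osteoblast and mineralization list. Its median log2 difference was -0.65, and 5 of the 88 other libraries were as low.

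The CC015 libraries were less alike than those of most strains. Over the tested genes, 1 minus Pearson's r averaged 0.0293 ± 0.0091 (SD, 6 pairs) within CC015, against a median of 0.0164 for the mean within another strain, and 4 other strains were more spread. Replicates 2 and 3, whose title numbers lie close together, were the nearest pair (0.0142) and replicates 1 and 3 the farthest (0.0409). The nearest pair was thus closer than the median of the other strains (0.0164). Most other strains had 2 libraries, several of them with adjacent title numbers, while those of CC015 lie further apart except in replicates 2 and 3. Strains were not compared at equal spacing of title numbers, so the wider spread cannot be assigned to the strain. The mean from CC015 to the other libraries was 0.0502. Replicate 1 stood apart in the list of hypoxia and glycolysis genes. Its median log2 difference over the 21 genes was -1.58, below the lowest of the 88 other libraries (-1.25), while replicates 2, 3 and 4 were at 0.54, 0.60 and 0.26. Bnip3, a hypoxia-induced mitophagy protein, was at 30.8 scaled TPM in replicate 1 and at 376, 420 and 254 in the others. The glucose transporter Slc2a1 was at 8.23 scaled TPM in replicate 1, against 61.9, 69.3 and 58.0. Libraries of other strains with title numbers within 20 of replicate 1 had list medians of -1.25 to -0.11. Because replicates 2 and 3 stood closest together, counts below are also given for replicates 1 and 4 alone and for replicates 2 and 3 alone, a choice made after seeing the data. A fit with 2 CC015 libraries has less power than one with 4. Depth per library is not recorded in TPM and is unknown here.

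Of the 15638 genes tested, 3716 (23.8%) passed a false discovery rate of 0.05 in limma with Benjamini-Hochberg adjustment. In CC015 1911 (12.2%) were higher and 1805 (11.5%) lower, and 230 of the higher and 113 of the lower calls were at least 2-fold. The median size of a called log2 difference was 0.40, and the median difference over all genes was -0.01. The split depended on scaling: 2140 genes were higher and 971 lower with the deposited TPM, so the share of calls that were higher went from 51.4% to 68.8%. With all CC015 libraries but replicate 2, 2384 genes passed. Among the 6 strains with 4 libraries, where the same test gave 3169 to 5670 calls, CC015 came 5th. These counts are the background against which the lists below are read.

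**Figure D1:**
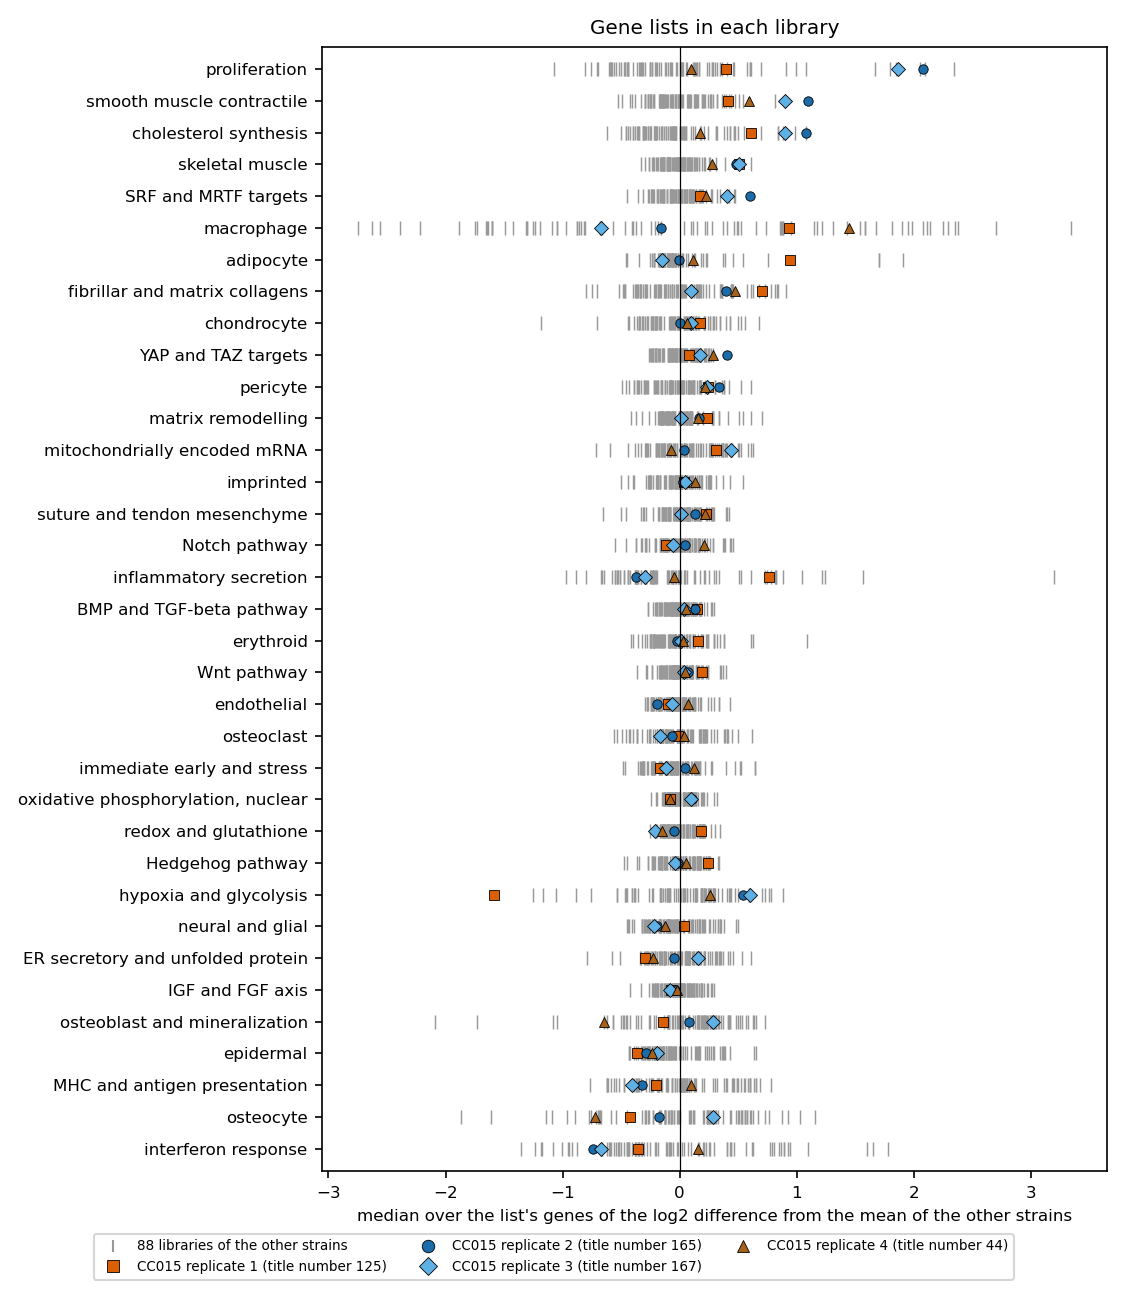
Median log2 difference (log2 of scaled TPM + 0.5, library minus mean of the other strains) over the measured genes of each of 35 lists, with a coloured point for each of the 4 CC015 libraries and a grey tick for each of the 88 other libraries. The contractile, cholesterol and proliferation medians of replicates 2 and 3 lie near or past the top of the other libraries, and the hypoxia and glycolysis median of replicate 1 lies below all of them.

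Smooth muscle contractile genes, which code for the actin, myosin and calponin family proteins of contractile cells, were higher in CC015 than in the mean of the other strains. Of 18 listed genes 17 were measured and 1 (Myocd) was below the filter. Of the 17, 13 rose, none fell, and the median log2 difference was 0.77, beside 12.2% of all genes higher and an all-gene median of -0.01. In limma no member of the contractile, SRF and MRTF, cholesterol, proliferation, macrophage, skeletal muscle or collagen list fell at an unadjusted p under 0.05 either (0 in each). By list median CC015 ranked first of 39 strains, with CC071 next at 0.47, and CC015 had the highest strain mean for 9 of the 17 genes. The list medians of CC015 replicates 1 to 4 were 0.41, 1.10, 0.90 and 0.59. Of the 88 other libraries 7 reached the lowest of these and none the 2 highest.

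Smooth muscle myosin heavy chain (Myh11), a late marker of contractile smooth muscle, was at 1.70, 7.59, 5.57 and 5.16 scaled TPM in CC015 replicates 1 to 4, and at 0.0473 to 4.45 (median 0.508) in the other libraries. Replicates 2, 3 and 4 lay above every other library, and replicate 1 was reached by 11 of them. The log2 difference was 2.13 (SE 0.18, limma adjusted p 2.82e-14). Enteric smooth muscle actin (Actg2) was at 32.6, 115, 90.2 and 61.4 scaled TPM, against 3.69 to 76.2 (median 18.4), a log2 difference of 1.80 (SE 0.23, limma adjusted p 6.26e-09). Vascular smooth muscle actin (Acta2), the most abundant gene of the list, was at 507, 1507, 1171 and 772 scaled TPM, against 91.5 to 1068 (median 378). Its replicates 2 and 3 were above all other libraries and its replicate 1 was reached by 16, with a log2 difference of 1.27 (SE 0.19, limma adjusted p 3.4e-07).

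For most of the actin-filament regulators, too, replicate 2 was the highest CC015 library and replicate 1 or 4 the lowest. Leiomodin 1 (Lmod1), which starts new actin filaments in smooth muscle, was at 2.56, 4.31, 3.41 and 2.89 scaled TPM, against 0.211 to 3.34 (median 0.886). Only 2 other libraries reached the lowest CC015 value, and the log2 difference was 1.39 (limma adjusted p 1.06e-10). Calponin 1 (Cnn1), an inhibitor of myosin ATPase, was at 16.2, 35.8, 23.4 and 17.8 scaled TPM, against 1.19 to 28.6 (median 8.15), a log2 difference of 1.38 (limma adjusted p 1.26e-06). Smoothelin (Smtn), which marks the fully contractile state, was at 23.1, 30.7, 24.2 and 21.99 scaled TPM, against 8.19 to 24.2 (median 14.6), and 1 other library reached its lowest value. Transgelin (Tagln), an actin-bundling protein, was at 177.3, 472, 362 and 344 scaled TPM, against 22.5 to 363 (median 150), and CC015 ranked below 1 other strain for it. Among the other called members the log2 difference was 0.83 for the regulatory light chain Myl9, 0.79 and 0.66 for the tropomyosins Tpm2 and Tpm1, and 0.66 for caldesmon (Cald1). The 4 measured members that did not pass were the light chain kinase Mylk (0.26), Fhl1 (0.29), desmin (Des, 0.10) and Hspb6 (0.02).

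In these bulk cultures, more contractile cells and more of these RNAs per cell cannot be told apart. Pericyte genes, which mark cells that wrap capillaries, were examined too: of 9 measured members 2 rose (Mcam and Pdgfrb), none fell in limma (1 at an unadjusted p under 0.05), and the median log2 difference was 0.17. The share called was 22.2%, beside 23.8% of all genes called and 12.2% higher. The adhesion molecule Mcam was at 2.03, 5.64, 4.22 and 3.91 scaled TPM, against 0.334 to 3.49 (median 1.27), so that replicates 2, 3 and 4 were above all other libraries. Of 25 skeletal muscle genes 17 were below the filter, among them the defining myogenic factors Myod1, Myf5, Myog and Pax7, and 5 of the 8 measured rose. Alpha skeletal actin (Acta1) was at 1.63, 4.40, 4.17 and 1.94 scaled TPM, against 0 to 2.22 (median 0.615), with a log2 difference of 1.55 (limma adjusted p 1.09e-09). The perinatal myosin Myh8 was at 4.10, 1.40, 0.991 and 2.57 scaled TPM, against 0 to 8.74 (median 0.0651), and was higher in replicates 1 and 4 than in replicates 2 and 3, unlike Myh11. Summed over the contractile list, CC015 libraries held 1510 to 3656 scaled TPM and the other libraries 532 to 2661. The part of these cell types in the result was not tested.

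The contractile count held in each split of the CC015 libraries: 10 of 17 rose with replicates 1 and 4 alone and 14 with replicates 2 and 3 alone. Against only the libraries of other strains with title numbers within 20 of their own, the 4 CC015 libraries had list medians of 0.40, 0.95, 0.77 and 0.61.

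**Figure D2:**
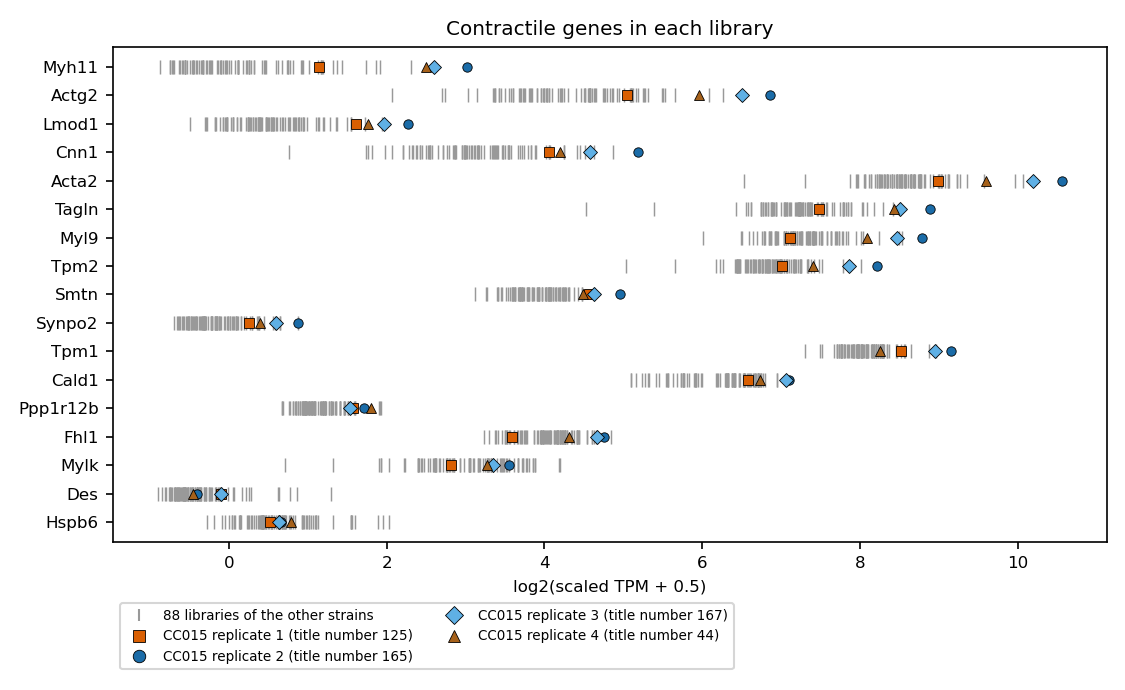
Levels of the 17 measured contractile genes, as log2(scaled TPM + 0.5), with a coloured point for each of the 4 CC015 libraries and a grey tick for each of the 88 libraries of other strains. Replicates 2 and 3 of CC015 sit at the top for Myh11, Actg2 and Acta2, and replicate 1 falls inside the range of the other strains.

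SRF and MRTF targets of the general actin cytoskeleton moved in the same direction by less. Of 19 genes 16 rose, none fell, and the median log2 difference was 0.41, first of 39 strains with CC071 next at 0.30. This count rested on replicate 2: without it 6 genes rose, and with replicates 1 and 4 alone 4 did, at a median of 0.18. The list medians of CC015 replicates 1 to 4 were 0.17, 0.60, 0.40 and 0.23. No other library reached replicate 2. Replicate 3 was reached by 3, of CC023, CC028 and CC038, all with title numbers within 20 of its own. Against libraries with title numbers within 20 of their own, the CC015 list medians were 0.13, 0.45, 0.33 and 0.28. The part of the title number in this list was not tested. Vinculin (Vcl), which ties actin to focal adhesions, was at 78.4, 112, 94.0 and 65.7 scaled TPM, against 27.8 to 96.4 (median 46), a log2 difference of 0.86 (SE 0.11, limma adjusted p 6.33e-09). Replicate 2 lay above all other libraries and 9 of them reached replicate 4. Beta actin (Actb), often used as a reference gene, was at 1844, 2441, 2066 and 1799 scaled TPM, against 1017 to 2411 (median 1459), and was higher by a log2 difference of 0.46 (limma adjusted p 8.92e-06). The log2 difference was 0.58 for gamma actin (Actg1), 0.68 for the focal adhesion protein Zyx and 0.25 for Srf itself. The co-activator Mrtfb (0.05), Filip1l (0.19) and Itga1 (0.20) did not pass.

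The SRF site known as the CArG box was looked for on both strands in the 250 bases before each gene's start in RefSeq (GRCm38.p6). It was found in 1.47% of all 32851 promoters in the table. Of the contractile genes with a promoter there, 2 of 14 held it (Myl9 and Fhl1), as did 5 of 18 SRF and MRTF targets (Actg1, Fhl2, Filip1l, Srf and Vcl). A match is a description of the letters and does not show binding. A window of 150 bases is shown for 3 called genes that hold it (171 to 22 bases before the start for Myl9, 237 to 88 for Vcl and 150 to 1 for Actg1), since they carry the element by which this gene group is known, in capitals:

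Myl9 (chr2:156775293-156775442, plus strand): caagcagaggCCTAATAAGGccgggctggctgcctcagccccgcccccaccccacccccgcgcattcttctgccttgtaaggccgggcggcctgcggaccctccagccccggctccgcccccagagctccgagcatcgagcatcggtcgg

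Vcl (chr14:20929161-20929310, plus strand): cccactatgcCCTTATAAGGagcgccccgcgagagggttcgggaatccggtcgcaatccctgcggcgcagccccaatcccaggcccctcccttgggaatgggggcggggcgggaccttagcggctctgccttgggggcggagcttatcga

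Actg1 (chr11:120348496-120348645, minus strand): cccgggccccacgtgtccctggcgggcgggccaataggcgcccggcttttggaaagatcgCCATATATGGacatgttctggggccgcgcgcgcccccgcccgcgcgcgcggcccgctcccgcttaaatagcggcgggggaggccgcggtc

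Of these 3 genes, whose sequences are the reference and not read from CC015, Vcl had the largest SRF-list difference and Actg1 the highest level, at 873, 2193, 2029 and 1290 scaled TPM in CC015 replicates 1 to 4. Targets of YAP and TAZ, co-activators that respond to cell spreading, were a further list. Of 15 genes 6 rose and 1 fell, with a median log2 difference of 0.20. The matrix-bound growth regulator Ccn2 was at 118, 99.4, 60.5 and 43.9 scaled TPM, against 15.9 to 133.9 (median 34.7), a log2 difference of 1.00 (limma adjusted p 0.00123), and did not pass with title number bins as a covariate (limma adjusted p 0.0612). The nuclear repeat protein Ankrd1 was at 1.97, 7.02, 6.24 and 4.28 scaled TPM, with a log2 difference of 1.08 that did not pass with replicates 1 and 4 alone (limma adjusted p 0.281).

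Cholesterol synthesis genes were higher nearly throughout. Of 22 genes 21 rose, none fell, and the median log2 difference was 0.72, first of 39 strains with CC028 next at 0.65. CC015 had the highest strain mean for 13 of them. The list medians of CC015 replicates 1 to 4 were 0.61, 1.08, 0.90 and 0.17, and 21 of the 88 other libraries reached the lowest. The cholesterol transfer protein Stard4 was the member that did not pass (log2 difference 0.30, limma adjusted p 0.145).

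Enzymes from the start to the end of the pathway rose. HMG-CoA synthase (Hmgcs1), an early enzyme of the pathway, was at 63.8, 72.0, 66.1 and 32.1 scaled TPM, against 17.6 to 78.2 (median 28.3), a log2 difference of 0.85. Isopentenyl diphosphate isomerase (Idi1) was at 17.7, 20.01, 14.3 and 6.93 scaled TPM, against 2.72 to 16.6 (median 6.62), a log2 difference of 0.95. The late sterol enzyme Nsdhl was at 10.4, 12.2, 10.4 and 6.48 scaled TPM, against 2.67 to 11.6 (median 4.30), a log2 difference of 0.98 (limma adjusted p 6.35e-06). Replicate 4 was the lowest CC015 library for each of these 3 enzymes. Log2 differences were 0.30 for the controlling factor Srebf2 and 0.52 for its retention factor Insig1. Fdps, at 1.18, shares 23.4% of its 50-base words with another gene of the annotation and is uncertain.

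The cholesterol count depended on replicates 2 and 3. With replicates 2 and 3 alone 21 genes rose, with replicates 1 and 4 alone 5 did (median 0.41), without replicate 2 14 did, and with title number bins as a covariate 14 did (median 0.52). Of the other libraries 1 reached replicate 2, of CC016, and 2 reached replicate 3, of CC016 and CC028, all with title numbers within 20 of those of replicates 2 and 3. Against libraries with title numbers within 20 of their own, the CC015 list medians were 0.46, 0.70, 0.59 and 0.36. The part of the title number in the result was not tested.

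The letters CCAAT, or ATTGG on the other strand, form the site of NF-Y, a factor that binds beside SREBP at sterol genes and at many cell cycle genes. They were found in the 250 bases before the start in 33.8% of all promoters and 40.3% of the tested genes with a promoter in the RefSeq table. All 14 matched cholesterol genes held them, as did 16 of 18 proliferation genes, 10 of 14 contractile genes and 6 of 18 SRF and MRTF targets. A window of 150 bases is shown for a pair of cholesterol genes and a pair of proliferation genes for the spacing of these motifs, in capitals. It runs from 237 to 88 bases before the start for Top2a and from 150 to 1 for the others:

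Nsdhl (chrX:72918371-72918520, plus strand): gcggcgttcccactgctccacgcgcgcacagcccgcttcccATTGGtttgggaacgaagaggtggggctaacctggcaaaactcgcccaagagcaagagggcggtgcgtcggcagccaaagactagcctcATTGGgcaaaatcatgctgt

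Idi1 (chr13:8885456-8885605, plus strand): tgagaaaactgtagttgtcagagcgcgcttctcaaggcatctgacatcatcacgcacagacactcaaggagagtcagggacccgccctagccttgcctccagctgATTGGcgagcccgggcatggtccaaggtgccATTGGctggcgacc

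Ccnb1 (chr13:100786487-100786636, minus strand): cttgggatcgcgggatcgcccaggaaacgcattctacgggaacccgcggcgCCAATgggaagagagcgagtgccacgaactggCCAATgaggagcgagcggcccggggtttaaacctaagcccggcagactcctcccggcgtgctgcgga

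Top2a (chr11:99024277-99024426, minus strand): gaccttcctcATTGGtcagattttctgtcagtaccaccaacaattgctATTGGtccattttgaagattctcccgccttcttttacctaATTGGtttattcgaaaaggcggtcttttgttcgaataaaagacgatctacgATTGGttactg

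Within these windows Nsdhl, Idi1 and Ccnb1 each held 2 such motifs and Top2a held 4.

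**Figure D3:**
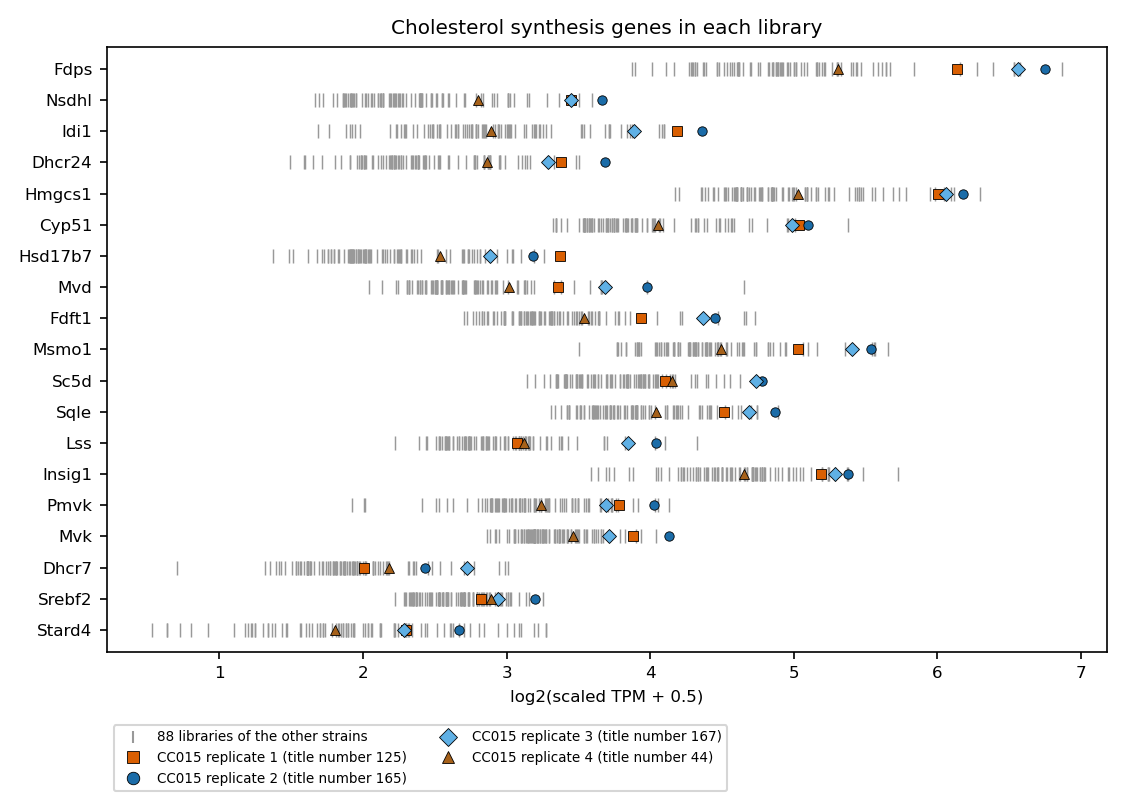
Levels of 19 of the 22 cholesterol synthesis genes, as log2(scaled TPM + 0.5), with a coloured point for each CC015 library and a grey tick for each of the 88 other libraries. CC015 replicates 1, 2 and 3 lie high in most genes, and replicate 4 lies closer to the middle, as for Idi1 at 6.93 scaled TPM beside a median of 6.62 in the other libraries.

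Proliferation genes differed in 2 of the 4 CC015 libraries. Of 20 genes 15 rose, none fell, and the median log2 difference was 1.08, first of 39 strains with CC038 next at 0.93. The list medians of CC015 replicates 1 to 4 were 0.40, 2.08, 1.86 and 0.10. Cyclin B1 (Ccnb1), which drives entry into mitosis, was at 7.35, 23.9, 23.1 and 5.35 scaled TPM, against 1.35 to 28.8 (median 4.35), a log2 difference of 1.31 (SE 0.37, limma adjusted p 0.00579). The DNA untangling enzyme Top2a was at 12.8, 48.6, 44.2 and 9.39 scaled TPM, against 3.68 to 56.7 (median 8.86), a log2 difference of 1.20 (limma adjusted p 0.0169). Mki67, the Ki-67 antigen of cycling cells, was at 4.30, 13.3, 13.6 and 3.32 scaled TPM, against 0.830 to 23.4 (median 2.47). For each of these 3 genes replicates 2 and 3 were near the top of all libraries, while replicates 1 and 4 were exceeded by many. The survivin gene Birc5 and the cyclin Ccna2 had log2 differences of 1.32 and 1.28.

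Most of the calls were genes of mitosis. The replication genes Pcna (0.08), Mcm2 (0.06), Mcm3 (0.26), Mcm5 (0.50) and Tyms (0.26) did not pass, while Mcm6 (0.64) and Rrm2 (1.02) did. With replicates 1 and 4 alone none of the 20 genes passed in limma (0 at an unadjusted p under 0.05), and with replicates 2 and 3 alone 16 did. Without replicate 2, or with strains whose title numbers lie 20 or more apart, 1 passed. The libraries of other strains that reached replicates 2 and 3 were of CC023, CC028 and CC038 and carried title numbers within 20 of theirs. The part of the title number in these calls was not tested.

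Macrophage markers were higher in CC015 replicates 1 and 4 than in replicates 2 and 3. Their list medians in replicates 1 to 4 were 0.93, -0.16, -0.68 and 1.45, inside the range of -2.75 to 3.35 of the other libraries. Of 19 genes 4 passed, all higher (C1qb, C1qc, Cx3cr1 and Cd163), the log2 difference was positive for all 19, and the median was 0.38. The share called was 21.1%, beside 23.8% of all genes called and 12.2% higher. The growth factor receptor Csf1r, on which macrophages depend, was at 16.3, 6.22, 4.22 and 20.2 scaled TPM, against 0.424 to 106 (median 7.29). The complement subunit C1qb was at 62.6, 34.0, 19.6 and 92.0 scaled TPM, against 1.20 to 307 (median 18.3). Both genes were higher in replicates 1 and 4 than in replicates 2 and 3, and C1qb was above the median of the other libraries in all 4. With replicates 1 and 4 alone 16 of 19 genes rose, and with replicates 2 and 3 alone none passed in limma (1 lower at an unadjusted p under 0.05). Summed over the list, CC015 libraries held 270 to 1521 scaled TPM and the other libraries 44.4 to 6421. The part of macrophage RNA in the contractile, sterol and mitotic differences was not tested.

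**Figure D4:**
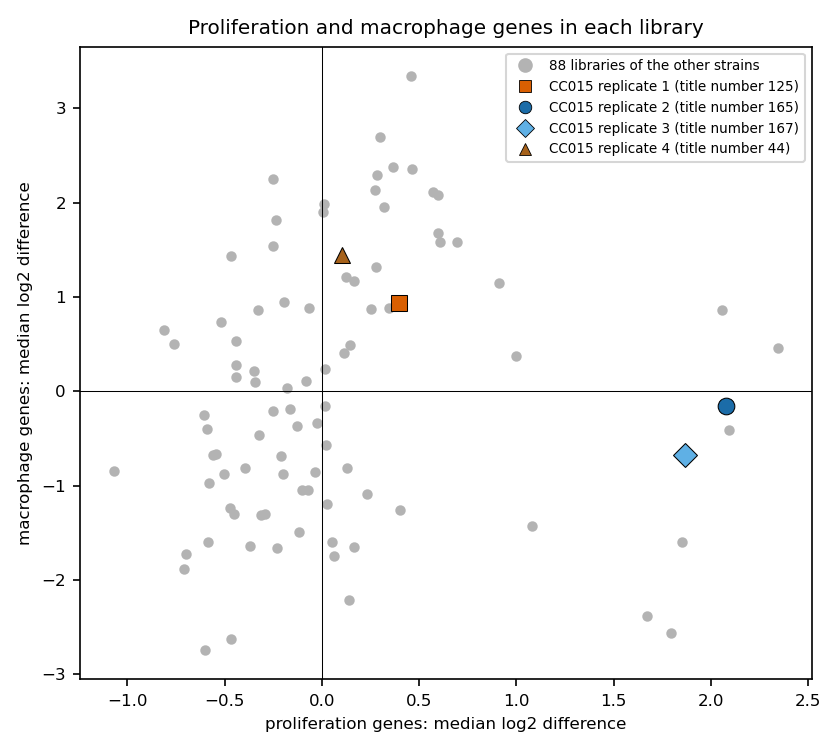
Median log2 difference of each library from the mean of the other strains, over proliferation genes (horizontal) and macrophage genes (vertical), for the 4 CC015 libraries (coloured) and the 88 others (grey). CC015 replicates 2 and 3 lie far right, at 2.08 and 1.86, and below 0 for macrophage genes, and replicates 1 and 4 lie at 0.93 and 1.45 for macrophage genes.

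Of the 12162 genes with a mean of at least 1 scaled TPM in CC015 or in the other strains, 16 had all 4 CC015 libraries outside the range of all 88 others (0.132%). Above every other library lay 8 (0.0658%), and below every other library lay 8 (0.0658%). Under both other scalings 8 of the 16 stayed outside: Tulp3, Cyb5r3, Fam213b, C1rl, Baiap2l1, Eno1b, Zfp992 and Gm23547. Bckdhb stayed outside with the protein-coding scaling alone.

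The protein-coding gene furthest below the others was Fam213b, which codes for a thioredoxin-like prostamide and prostaglandin F synthase. It was at 0.0499, 0.0857, 0 and 0.0392 scaled TPM in CC015 replicates 1 to 4, and at 8.35 to 19.7 (median 14.0) in the other libraries. No other strain came near this level, the next lowest being CC044 at a mean of 10.2. The log2 difference was -4.72 (SE 0.09, limma adjusted p 1.86e-45). The gene overlaps Mmel1 on the opposite strand, which was at most 2.04 scaled TPM in any other library (median 0.339). Mmel1 was lower in CC015 too, at 0.0626, 0.0770, 0.0984 and 0.123 scaled TPM (log2 difference -0.53, limma adjusted p 0.00795). In the other strains 99.6% of the level of Fam213b came from 1 coding transcript, listed at or near 0 in CC015 replicates 1 to 3 and at 0.0392 in replicate 4.

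Baiap2l1, an adaptor that bends membranes and bundles actin, was the reverse. Its level was 18.4, 41.6, 21.3 and 12.9 scaled TPM in CC015, and 0.139 to 8.04 (median 0.343) in the other libraries. The lowest CC015 library exceeded the highest other one, CC075 being the next strain at 7.61. This gave a log2 difference of 4.59 (SE 0.14, limma adjusted p 7.25e-35). Of its RNA in CC015 75.3% was its coding transcript and 24.7% a noncoding one, against 89.2% and 10.8% elsewhere. It overlaps Bri3 on the opposite strand, which was at 17.9, 32.5, 32.5 and 33.8 scaled TPM in CC015 and did not pass (log2 difference -0.08, limma adjusted p 0.655).

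Other genes above the range were changed by less and varied little among the CC015 libraries. Tulp3, which carries receptors into the primary cilium, was at 10.6, 11.9, 11.4 and 11.2 scaled TPM, against 1.62 to 10.3 (median 4.17), a log2 difference of 1.36 (SE 0.08, limma adjusted p 1.59e-20). CC075 was again the next strain, at 9.53. Cytochrome b5 reductase (Cyb5r3), an electron carrier that also serves sterol desaturation, was at 67.8, 84.6, 77.5 and 66.6 scaled TPM, against 26.1 to 65.95 (median 42.9), a log2 difference of 0.78. The complement protease relative C1rl was at 3.09, 4.07, 3.37 and 3.44 scaled TPM, against 0.337 to 2.92 (median 1.58). H6pd, which makes NADPH inside the endoplasmic reticulum, was at 18.1, 18.8, 16.8 and 21.2 scaled TPM, against 8.21 to 16.7 (median 12.2). Klhl21, a ubiquitin ligase adaptor of dividing cells, was at 6.42, 6.40, 6.38 and 7.49 scaled TPM, against 1.92 to 6.35 (median 4.33). H6pd and Klhl21 lay close to the edge and were inside the range under the other scalings.

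Among the genes below the range, Bckdhb, a subunit of the complex that breaks down branched-chain amino acids, was at 4.38, 4.95, 5.45 and 5.02 scaled TPM, against 5.78 to 25.9 (median 11.7), a log2 difference of -1.09 (SE 0.07, limma adjusted p 3.69e-18). The acyl-CoA thioesterase Acot7 was at 3.27, 2.96, 2.65 and 2.81 scaled TPM, against 3.30 to 14.4 (median 7.13), a log2 difference of -1.16. The methyltransferase Hemk1 was at 2.54, 3.00, 2.81 and 2.97 scaled TPM, against 3.04 to 7.83 (median 6.00). A change in transcript shares went with it: a transcript that keeps an intron made up 23.5% of its level in CC015 and 6.71% elsewhere, a share that was not tested. Msrb2, which repairs oxidized methionine in mitochondria, was at 1.31, 1.35, 0.967 and 1.50 scaled TPM, against 1.57 to 5.31 (median 2.45). The lipase Lipo3 had a log2 difference of -0.89 and Itfg2 of -0.68, and both were inside the range under the other scalings, as were Acot7, Hemk1 and Msrb2.

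The other 3 are uncertain. Eno1b was at 152.7, 281, 258 and 262 scaled TPM, against near 0 to 93.6 (median 0.0874), and shares 76.4% of its 50-base words with the glycolytic enzyme gene Eno1. Eno1 was at 344 to 644 scaled TPM in CC015 and did not pass (log2 difference -0.29, limma adjusted p 0.113). Zfp992 shares 37.5% of its words with Zfp991. The snoRNA Gm23547, at 185.8, 236, 251 and 208 scaled TPM against 12.4 to 165.1, lies inside Phb2, which did not pass (-0.08). Reads of such copies cannot be assigned with certainty. Copies were looked for only in genes named by the fixed rules given below. List members added later, such as Acta2, Tagln, Actb and Actg1, were not checked, so the lack of a mark does not clear them.

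**Figure D5:**
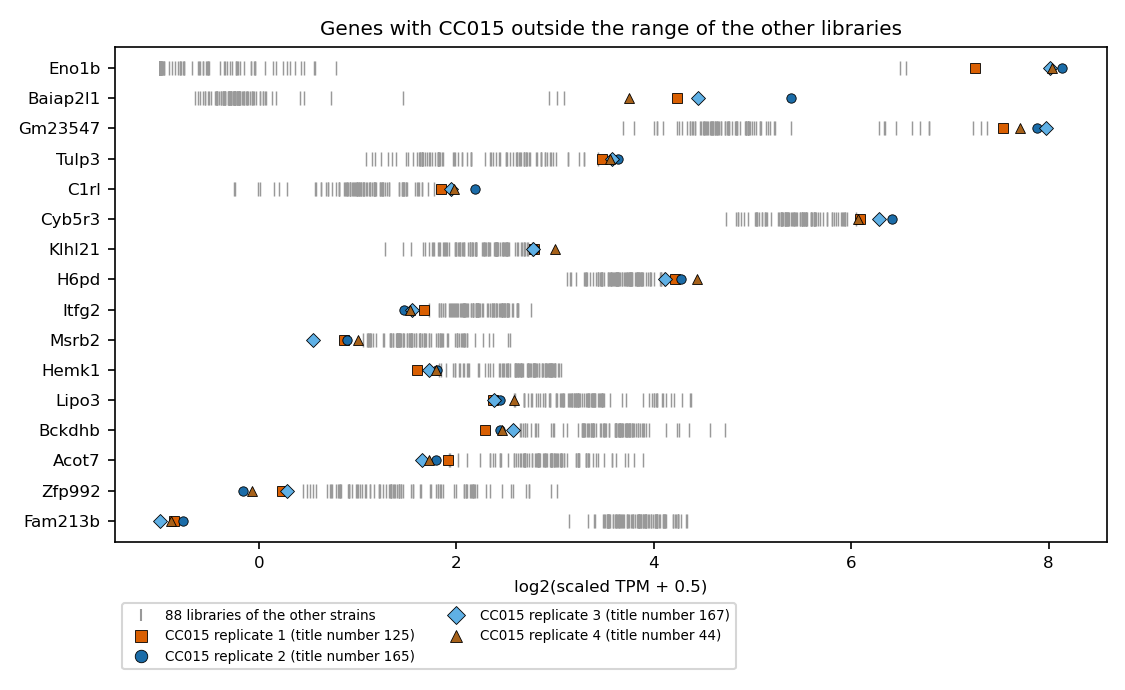
Levels, as log2(scaled TPM + 0.5), of the 16 genes whose 4 CC015 libraries all lie outside the range of the 88 other libraries, with a coloured point for each CC015 library and a grey tick for each other library. Fam213b and Baiap2l1 are separated from every other library by a wide gap, while Klhl21, Hemk1 and Acot7 lie at the edge of the range.

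Several large differences belonged to genes that other strains shared. The paraoxonases Pon3 and Pon2, lactone-cleaving enzymes coded side by side on chromosome 6 with no coding gene between, fell together. Pon3 was at 0.731, 0.345, 0.407 and 1.25 scaled TPM, against 0.241 to 16.7 (median 9.54), a log2 difference of -2.63 (SE 0.13, limma adjusted p 2.03e-25). Pon2 was at 0.879, 1.17, 0.765 and 1.16 scaled TPM, against 0.723 to 19.4 (median 10.1), a log2 difference of -2.62 (SE 0.10, limma adjusted p 1.09e-30). CC015 ranked 36th of 39 strains for Pon3 and 37th for Pon2, so a few other strains were as low. The zinc finger gene Zfp979 was at 0.0133, 0.0260, near 0 and 0.0566 scaled TPM, against 0 to 20.4 (median 5.57), and 15 other libraries were as low as the highest of these. Nrip2, a nuclear receptor partner on chromosome 6 next to Itfg2, was at 0.541, 1.86, 2.35 and 3.11 scaled TPM, against 0.540 to 21.5 (median 9.53). Nrip2 and Itfg2 overlap on opposite strands and were both lower, and Tulp3 lies 4 coding genes away and was higher. On chromosome 4, 5 of the 855 tested coding genes lay outside the range, beside 0.132% of all genes with a mean of at least 1 scaled TPM. Klhl21 and Acot7 there are separated by 7 coding genes and moved in opposite directions. Both were inside the range under the other scalings. Rhbdl2, a membrane protease on the same chromosome, was at 0.827, 2.70, 4.05 and 0.880 scaled TPM, against 0.339 to 37.2 (median 13.7).

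Among the higher genes shared with other strains was Gbp2b, a guanylate-binding protein of interferon-stimulated cells, at 6.57, 4.72, 3.94 and 6.24 scaled TPM, against 0 to 6.16 (median 0.0628). CC038 had a higher mean, and the log2 difference in CC015 was 2.98 (SE 0.18, limma adjusted p 9.87e-21). Lyz1, a lysozyme that shares 16.1% of its words with Lyz2, was at 44.6, 16.7, 10.5 and 56.3 scaled TPM, against near 0 to 326 (median 1.38). It had the order of the macrophage list among the CC015 libraries. Lyz2 itself did not pass (log2 difference 0.14). The uncertain genes Atp5g2, Tpm3-rs7, Sec61g and Hmga1b, with log2 differences of 2.93, 2.80, 2.74 and 2.67, share words with copies elsewhere in the annotation. Summed with its copy, each differed by 2.78, 0.10, 1.21 and 0.46. Tpm3, the copy of Tpm3-rs7, was itself lower (-0.29, limma adjusted p 0.0206). Sec61g shares 14.8% of its words. Atp5g2 and Sec61g also ran opposite to a transcript with no match in the annotation (r -0.90 for each). Summed with it, they differed by -0.12 and -0.48. Lower by log2 differences of -1.76, -1.57 and -1.49 were Ostn, a hormone of bone and muscle, the skin adhesion protein Cdsn and the ectonucleotidase Entpd3. Cdsn did not pass without replicate 1 (limma adjusted p 0.0623).

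Few osteoblast and mineralization genes passed the test. Of 22 genes none rose in limma (1 at an unadjusted p under 0.05), 1 fell, and the median log2 difference was -0.14, beside 23.8% of all genes called. Runx2, the factor required to form osteoblasts, was the gene that fell: it was at 8.33, 6.24, 7.66 and 7.88 scaled TPM, against 4.74 to 23.9 (median 13.5). All 4 CC015 libraries lay below that median and 8 of the 88 others were at or below the highest of them, with a log2 difference of -0.76 (SE 0.16, limma adjusted p 0.000185). Sp7, which acts after Runx2, was at 25.5, 26.1, 30.1 and 16.7 scaled TPM, against 4.20 to 61.4 (median 36.8), and did not pass (log2 difference -0.38, limma adjusted p 0.241), though it did with title number bins as a covariate (limma adjusted p 0.0251). The log2 difference was -0.23 (limma adjusted p 0.575) for Alpl and -0.24 (0.667) for Ibsp. Osteocalcin (Bglap2), which shares 69.2% of its words with Bglap and is uncertain, had a log2 difference of 0.44 (limma adjusted p 0.511), and the collagen gene Col1a1 one of 0.27 (limma adjusted p 0.501). A p that misses the threshold does not show that these levels were equal. The list medians of replicates 1 to 4 were -0.14, 0.08, 0.29 and -0.65, a spread wider than the difference from the other strains.

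Osteocyte genes, expressed by cells buried in bone matrix, were mixed: of 9 measured genes 2 rose and 1 fell. Sclerostin (Sost), the Wnt inhibitor secreted by osteocytes, was at 0.348, 3.91, 6.98 and 1.56 scaled TPM, against 0 to 123 (median 9.84). All 4 CC015 libraries were below the median of the others, the log2 difference was -1.67 (SE 0.57, limma adjusted p 0.0259), and the call was lost without replicate 1 (limma adjusted p 0.229). Podoplanin (Pdpn), a membrane protein of young osteocytes, was at 62.4, 42.8, 44.5 and 49.4 scaled TPM, against 9.66 to 216 (median 23.2), a log2 difference of 1.02 (limma adjusted p 3.27e-05).

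The Wnt pathway drives osteoblast formation and is tuned by secreted inhibitors. Of 39 measured genes 8 rose and 2 fell, with a median log2 difference of 0.04. The share called was 25.6%, near the 23.8% of all genes. Lgr5, a receptor for R-spondins that amplifies Wnt signals, was at 12.5, 16.1, 11.7 and 14.5 scaled TPM, against 0.284 to 29.0 (median 1.39). The CC015 libraries were close together and only 7 other libraries reached the lowest, with CC030 the higher strain at a mean of 25.7. Its log2 difference was 2.53 (SE 0.26, limma adjusted p 1.13e-11). The decoys Sfrp1 and Sfrp2 were higher by log2 differences of 1.57 and 1.40, but Sfrp1 ran from 6.32 to 65.7 scaled TPM within CC015, and neither passed with replicates 2 and 3 alone (limma adjusted p 0.708 and 0.307). Wif1, a further Wnt-binding inhibitor, was lower, at 9.85, 15.2, 19.3 and 6.40 scaled TPM against 1.45 to 80.0 (median 33.5), a log2 difference of -1.22 (limma adjusted p 5.39e-05). The ligand Wnt11 (0.89) and the inhibitor Dkk2 (0.87) rose, while the target gene Axin2 (0.15) and the transcription factor Lef1 (-0.24) did not pass.

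In the BMP and TGF-beta pathway 8 of 40 genes rose and 2 fell, with a median log2 difference of 0.06. These calls made up 25.0% of the list, near the 23.8% of all genes. The ligand Tgfb3 was at 41.8, 54.5, 41.4 and 38.9 scaled TPM, against 18.8 to 56.6 (median 27.6), a log2 difference of 0.63 (limma adjusted p 4.53e-07). The ligand Bmp4 was higher by a log2 difference of 0.41, whereas the pseudoreceptor Bambi (-0.56) and the BMP target Id2 (-0.33) fell. The latent TGF-beta binding protein Ltbp2 (0.80) did not pass without replicate 1, 2 or 4.

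In the IGF and FGF axis 7 of 24 genes rose and 6 fell. Igfbp2, a carrier of insulin-like growth factors, was at 624, 504.3, 334 and 605 scaled TPM, against 68.2 to 779 (median 172), a log2 difference of 1.54 (SE 0.20, limma adjusted p 1.84e-08). Igfbp6, a carrier that prefers IGF2, was at 9.18, 8.47, 5.65 and 8.29 scaled TPM, against 5.38 to 52.3 (median 17.2), a log2 difference of -1.14 (limma adjusted p 6.06e-08). The carriers thus moved in opposite directions, with Igfbp4 at 0.55 and Igfbp5 at -0.61. The receptor Fgfr3, which limits bone growth, was lower (-0.87) and the FGF-induced factor Etv4 higher (0.84). Igf2 itself had a log2 difference of 0.80 and is uncertain, since it shares 61.2% of its words with another gene model. Hey1, the 1 called gene of 9 in the Notch pathway, fell by 1.12 on the log2 scale. Of 9 Hedgehog genes the co-receptor Cdon rose (0.44) and the decoy Hhip fell (-0.86), the latter not without replicate 1 or 4. That was 22.2% of the Hedgehog list, near the 23.8% of all genes.

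Among 24 collagens and matrix fibre genes 9 rose and none fell, the median log2 difference was 0.37, and 23 of 24 differences were positive. Elastin (Eln) was at 57.3, 30.1, 21.4 and 37.3 scaled TPM, against 5.06 to 46.05 (median 15.7), a log2 difference of 1.12 (limma adjusted p 0.000417). Replicate 1 lay above all other libraries and 19 reached replicate 3. With replicates 2 and 3 alone 1 gene of the list rose, and without replicate 3 12 did. Col14a1 (1.08), Col8a1 (0.82) and the fibrillin Fbn2 (0.78) were next by size and did not pass with replicates 2 and 3 alone. Of 22 matrix remodelling genes 7 rose and 2 fell. Lysyl oxidase (Lox), which cross-links collagen and elastin, was at a mean of 425 scaled TPM ± 25.9 (SD, n = 4) in CC015, against 115 to 738 (median 241), a log2 difference of 0.75 (limma adjusted p 9.48e-05). The collagenase Mmp13 was at 348, 360, 410 and 597 scaled TPM, against 133 to 1833 (median 760), a log2 difference of -0.81 (limma adjusted p 0.00321). The aggrecanase relative Adamts12 was at 4.06, 3.02, 2.85 and 3.30 scaled TPM, against 1.74 to 15.1 (median 7.17), a log2 difference of -0.95 (limma adjusted p 3.78e-09).

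Cartilage genes were split. Of 23 measured chondrocyte genes 3 rose and 3 fell, 26.1% called and near the 23.8% of all genes. The collagen type IX chain Col9a1 was at 26.8, 22.4, 16.2 and 26.1 scaled TPM, against 0.893 to 25.6 (median 4.18), a log2 difference of 2.19 (SE 0.27, limma adjusted p 4.57e-09). Its partner chains did not move with it: Col9a2 (-0.06) and Col9a3 (-0.08) did not pass. The cartilage proteoglycan Acan was at 6.58, 14.8, 16.1 and 5.94 scaled TPM, against 0.108 to 22.7 (median 3.13), a log2 difference of 1.44. The defining factor Sox9 (0.17) and the main cartilage collagen Col2a1 (0.44) did not pass, and the growth plate signal Ihh fell (-0.77), as did Matn1 (-0.33) and Chad (-0.46).

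Interferon response genes were lower than the mean of the other strains in 3 of the 4 libraries. By list median CC015 ranked 29th of 39 strains. The other libraries had a median of -0.20 (-1.36 to 1.78), and 34 of the 88 were as low as replicate 1. Of 30 genes none rose in limma (1 at an unadjusted p under 0.05) and 8 fell, beside 11.5% of all genes, the median log2 difference was -0.43, and the list medians of replicates 1 to 4 were -0.36, -0.74, -0.67 and 0.16. Ifi44 was at 0.638, 0.440, 1.48 and 2.26 scaled TPM, against 0.203 to 17.8 (median 2.65), a log2 difference of -1.17 (limma adjusted p 0.00202). In limma 12 genes fell with replicates 2 and 3 alone, with replicates 1 and 4 alone none fell (3 at an unadjusted p under 0.05) and 1 rose, and with the deposited TPM 5 fell. The antiviral gene Mx2 (-1.05) and the interferon brake Usp18 (-0.84) were also called, the latter lost with either other scaling (limma adjusted p 0.083 and 0.0583).

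In the antigen presentation list 2 of 20 measured genes rose and 7 fell. The class I heavy chain H2-D1 was at 11.4, 9.42, 10.97 and 12.5 scaled TPM, against 8.84 to 248 (median 68.9). Only 5 other libraries were at or below the highest CC015 value, those of CC016 (mean 10.3) among them, and the log2 difference was -2.29 (SE 0.14, limma adjusted p 9.86e-21). The other heavy chain H2-K1 did not pass (0.24). The class II chain H2-Ab1 was lower by a log2 difference of -1.37 while the class II chaperone Cd74 was higher by 0.69, and H2-Aa (0.08) did not pass. The light chain B2m was at 362, 340, 364.2 and 382 scaled TPM, against 254 to 798 (median 449), a log2 difference of -0.39 (limma adjusted p 0.000309). Class I genes differ in sequence between strains, and how far reads of a strain's own alleles were counted was not tested. Of 25 inflammatory secretion genes 3 rose and 2 fell. The cytokine Il33 fell (-1.02) and the chemokine Cxcl12 rose (0.80), the latter not without replicate 1.

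Of 23 measured redox and glutathione genes 2 rose and 7 fell. The glutathione transferase Gstm2 was at 23.5, 12.7, 10.2 and 17.9 scaled TPM, against 7.55 to 124 (median 45.4), a log2 difference of -1.41 (limma adjusted p 2.56e-09), and Gsta4, which clears lipid aldehydes, differed by -1.01. Thioredoxin reductase (Txnrd1) was higher by 0.55. The proton-driven transhydrogenase Nnt, at -1.01, shares 46.8% of its words with a second model and is uncertain.

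Of 21 measured imprinted genes 7 rose and 2 fell. The noncoding RNA Meg3 was at 44.6, 33.9, 25.4 and 42.2 scaled TPM, against 7.28 to 53.2 (median 16.1), a log2 difference of 1.12 (limma adjusted p 0.00014). Rian and Mirg, read from the same maternal allele, had log2 differences of 0.98 and 0.76. Dlk1, read from the paternal allele of that locus, had 1.00 and ran from 1.53 to 9.71 scaled TPM, its call lost without replicate 1 (limma adjusted p 0.292). Of 13 mitochondrially encoded mRNAs 5 rose and 1 fell, of which mt-Co3, mt-Atp6 and mt-Nd4l have near-identical nuclear copies or overlap a neighbour and are uncertain.

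In the nuclear oxidative phosphorylation list 1 of 24 rose, in hypoxia and glycolysis 1 of 21 (Gapdh, uncertain), in the immediate early list 1 rose and 1 fell of 21, and in the ER secretory list 1 of 23 fell. Of 13 adipocyte genes Cd36 rose, and the direction of its difference turned with replicates 2 and 3 alone (-0.09, limma adjusted p 0.907). Among other cell types, none of 8 endothelial and none of 2 erythroid genes passed in limma (1 and 0 at an unadjusted p under 0.05), 1 of 7 neural genes rose, 3 of 5 epidermal genes fell, and 2 of 8 osteoclast genes rose and 1 fell. The epidermal genes lay near the floor, with a median level of 0.35 scaled TPM in the other strains, and 5 of the 10 listed were below the filter. In the suture and tendon list 2 of 15 rose and 1 fell. Of all genes tested 12.2% rose and 11.5% fell.

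No source used here says whether the counting used strand. Reads of Vcl, Zyx, Runx2, Sfrp2, Tgfb3, Ccn2, Eln, Lox, Mcam, Meg3, Cyb5r3, Klhl21, Pon2, Ostn, Fgfr3, Hhip, Cx3cr1, Ccna2 and Usp18 could in part be of a gene on the other strand that overlaps them in the annotation. The same holds for Fbn2, Ltbp2, Igf2 and Gapdh. Overlaps were looked for only in genes named by the fixed rules, so other genes printed here may have them too.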

How the data were processed

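Per the labels' protocols, stranded total RNA libraries were made from 200 ng of RNA after ribosomal RNA removal. The deposited values are TPM per transcript, made by the authors. The file name speaks of counts, but all 96 columns sum to 1000000. Bowtie and mm9 come from the submitters' processing notes, and no source used here names the quantifier. Of 94545 transcripts 91225 matched GENCODE vM21 and were summed into 37945 genes, and 1 line that names no transcript, at 0, was left out. A CC030 sample sequenced 2 times entered as the mean of both runs.

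Libraries were scaled by a trimmed mean of log ratios (factors 0.773 to 1.27). Genes reaching 0.5 TPM in 2 libraries were fitted as log2(scaled TPM + 0.5) with limma 3.58.1 (R 4.3.3), with 1 mean per strain, 53 residual degrees of freedom, a variance trend and two-sided Benjamini-Hochberg adjustment. Other steps used Python 3.11.15. The limma step was tested on simulated data with noise drawn independently for each gene and library. That test cannot show how many false calls come from features that some libraries share. Alternatives covered scaling, pseudocount, filters, adjustment, title number, weights and left-out libraries.

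Named genes were the largest called differences in each direction, up to 4 called members of each list, 4 fixed bone genes and genes outside the range of all other libraries. Further list members were added after their values were seen, and these were not checked for copies or overlaps. The strain and the lists were chosen with earlier results of these data known. Values of some list members are not reported here, while counts and medians cover all measured members.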

Additional observations from a re-analysis of the deposited data

Results flagged for a closer look

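For each named gene, the 4 CC015 libraries were searched for a value far from the others, by Dixon's ratio of the gap to the whole range at the 95% level. Chance marks about 1 in 20 such groups. Eno1b, uncertain for its likeness to Eno1, had replicate 1 at 152.7 scaled TPM, far below the other CC015 libraries (ratio 0.865). Klhl21 had replicate 4 at 7.493 scaled TPM, above the other CC015 libraries (ratio 0.956).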

How the results depend on the processing

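Among results for single genes, 2033 kept direction and side of the threshold under an alternative, 242 lost the call, 1 gained it (Sp7 with title number bins) and 1 turned direction (Cd36, log2 difference -0.0867 with replicates 2 and 3 alone). For the genes of the contrast, lower calls fell to 971 with the deposited TPM. With strains whose title numbers lie 20 or more apart, 2334 genes passed, 1158 higher and 1176 lower. With library weights, which gave replicate 2 a weight of 2.89 and replicate 1 a weight of 0.21, 6557 passed, 3272 higher and 3285 lower. Leaving out 1 CC015 library gave 2384 to 3284 calls, 1201 to 1751 higher and 1183 to 1567 lower, with the fewest without replicate 2. With replicates 1 and 4 alone, chosen after seeing the data, 1200 were lower. Of the 16 genes outside the range of all other libraries, 8 stayed outside with the deposited TPM and 9 with the protein-coding scaling. These 2 numbers are of the 16 genes only. The count over all genes was 17 to 35 with 1 CC015 library left out, the most without replicate 1. Fewer samples enter the fits that leave out libraries or strains, and otherwise the cause was not tested. No paired analysis was possible because the labels carry no replicate numbers shared between strains.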
